A study of Mus musculus with 16 samples.

Results

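Slc15a2, the gene deleted in Pept2 knockout mice, and 9 genes that lie near it on mouse chromosome 16 were followed through kidney RNA of these animals. The 9 are Eaf2, Slc35a5, Mylk, Bdh1, Atp13a4, Mb21d2, Ncbp2, Apod and Opa1, so the set holds 10 of the 6191 genes that could be tested. They were picked by name from genes within about 100 gene places of Slc15a2, with their log2 ratios of knockout over wild type in view. Those ratios are therefore given as a description and carry no test. A gene place is 1 step in the order of protein-coding genes along the chromosome (RefSeq, GRCm38.p6), and a negative place lies before Slc15a2 in that order.

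The animals were males, 88 (± 2) days old, of mixed C57BL/6 and 129Sv background. They descended from the F4 generation of a Pept2+/- line, whose matings gave litters that were either Pept2-/- or Pept2+/+. Right kidneys of 4 knockout mice were each compared with 1 pool of RNA from the right kidneys of 5 wild-type mice, on 4 spotted cDNA arrays per mouse, 16 arrays in all. Each mouse had 2 arrays with its RNA in channel 1 and 2 with its RNA in channel 2. All animals were killed between 8 and 10 am. No wild-type animal was hybridised singly, so the spread between wild-type mice is unknown, and any fault of the pool enters the ratios of every knockout mouse alike. Because the knockout and wild-type litters came from a mixed background, the loss of Slc15a2 and the origin of the chromosomal segment around it cannot be told apart in this design.

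The values are log2 ratios of knockout over pool, where -1 means that the knockout has 50% of the pool's signal. Their likely direction is channel 1 over channel 2. The basis is Slc15a2 alone, whose deposited values were above 0 on the 8 arrays that carried knockout RNA in channel 2 and below 0 on the 8 that carried it in channel 1. Slc15a2 therefore cannot check its own direction, and every sign below would turn under the opposite reading. An array held between 10134 and 18400 probe values. Ratios give no expression levels, so neither the rank of these genes in kidney nor the identity of the tissue could be checked by level. Among kidney markers with a ratio, the tubule receptor Cubn stood at 0.07 and the water channel Aqp2 at 0.27. All 14 probes of the 10 genes passed the filter, which asked for a value in each mouse and each orientation. The 6 genes with 1 probe were Slc15a2, Eaf2, Mylk, Atp13a4, Mb21d2 and Apod. The other 4 genes had 2 probes each, and their gene value is the mean of both.

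Slc15a2 encodes PEPT2, a proton-coupled carrier of the apical membrane that recovers dipeptides and tripeptides from the filtrate in the later proximal tubule. In mouse lines made by gene targeting and kept on a mixed background, the chromosome on both sides of the deletion is inherited together with it for many generations, which is why genes near a targeted locus are looked at separately. The neighbours followed here serve unrelated functions, from transcription elongation and sugar nucleotide transport to muscle contraction and mitochondrial fusion.

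The start regions of Slc15a2 and of Eaf2, its immediate neighbour, are shown because these genes had the ratios farthest from 0 in the set. They are RefSeq windows of build GRCm38.p6, from 250 bases before to 50 bases after an annotated start, all on the minus strand and written 5′ to 3′. Capitals mark the CCAAT box (CCAAT or ATTGG) and the GC box (GGGCGG or CCGCCC), both searched on both strands, and overlapping GC boxes run together. The Slc15a2 window lies at chr16:36784913-36785212, and the 3 Eaf2 windows at chr16:36808656-36808955, chr16:36828210-36828509 and chr16:36874777-36875076.
Slc15a2: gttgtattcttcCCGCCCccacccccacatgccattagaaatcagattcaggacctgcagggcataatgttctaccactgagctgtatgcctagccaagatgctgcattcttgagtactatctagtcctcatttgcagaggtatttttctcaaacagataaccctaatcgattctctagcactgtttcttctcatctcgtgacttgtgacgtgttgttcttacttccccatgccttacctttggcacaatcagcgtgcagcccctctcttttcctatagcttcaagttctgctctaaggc
Eaf2 window 1: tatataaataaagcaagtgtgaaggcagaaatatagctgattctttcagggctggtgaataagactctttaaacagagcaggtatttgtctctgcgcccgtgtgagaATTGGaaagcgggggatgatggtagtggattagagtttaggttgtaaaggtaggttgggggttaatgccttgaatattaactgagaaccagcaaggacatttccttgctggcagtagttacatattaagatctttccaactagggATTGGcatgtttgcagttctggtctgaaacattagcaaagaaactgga
Eaf2 window 2: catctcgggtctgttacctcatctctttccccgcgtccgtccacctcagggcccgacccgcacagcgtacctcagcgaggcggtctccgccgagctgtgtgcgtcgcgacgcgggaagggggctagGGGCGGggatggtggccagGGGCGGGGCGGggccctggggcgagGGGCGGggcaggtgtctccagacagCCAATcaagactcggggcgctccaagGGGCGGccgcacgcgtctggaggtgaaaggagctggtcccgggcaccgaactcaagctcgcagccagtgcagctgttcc
Eaf2 window 3: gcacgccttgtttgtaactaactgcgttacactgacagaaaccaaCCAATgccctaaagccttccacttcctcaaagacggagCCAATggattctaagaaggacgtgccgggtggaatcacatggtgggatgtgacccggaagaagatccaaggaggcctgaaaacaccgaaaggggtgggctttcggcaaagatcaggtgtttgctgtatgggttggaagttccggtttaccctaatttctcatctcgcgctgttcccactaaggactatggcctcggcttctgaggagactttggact
The Slc15a2 window held 1 GC box, no CCAAT box and 46.3% G and C bases. The second Eaf2 window was a GC-rich start (70.7%) with 5 GC boxes, while the first (41%) and the third (51%) held 2 CCAAT boxes each and no GC box. The gene table gave 13 windows for 9 of the 10 genes. A CCAAT box stood in 6 of the 13 against 37.4% of all 32851 windows of the same length, and a GC box in 7 against 35.7%. The Mb21d2 window was the richest in G and C (82.7%) and held 6 GC boxes. These matches describe the letters only, and the files hold no measurement of binding at these windows.

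Slc15a2 itself was far below the pool on every array. Its 16 log2 ratios ran from -3.77 through a median of -2.43 to -1.45. The means of mice 1 to 4 were -2.17, -2.74, -2.81 and -2.33, which average to -2.51 ± 0.31 (SD, n = 4 mice), 5.71-fold lower. Its ratio was the farthest from 0 of all 6191 genes. Mice 2 and 3 were lowest, but the range of the 4 arrays within each mouse exceeded the range of the mouse means. In mouse 2 the arrays read -2.15, -2.59, -2.45 and -3.77. The sources used here do not say whether its 1 probe lies inside the deletion.

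Eaf2, whose product is a cofactor of the ELL elongation factors of RNA polymerase II, is the coding gene next to Slc15a2 and had the second most negative ratio of the set. It was below 0 on all 16 arrays, from -0.95 through a median of -0.59 to -0.27. The means of mice 1 to 4 were -0.49, -0.68, -0.73 and -0.48, and the mean was -0.59 ± 0.13 (SD, n = 4 mice), 1.51-fold lower. All 4 mice lay below the pool, with mice 2 and 3 lower than mice 1 and 4, the order that Slc15a2 also had. Over the 16 arrays the ratios of Eaf2 and Slc15a2 correlated with a Pearson r of 0.47. That put Eaf2 81st of 2825 genes in likeness to Slc15a2, and the arrays of a mouse share its RNA.

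The nucleotide sugar transporter family member Slc35a5 lies 56 places after Slc15a2, and its probes gave different sizes. The first probe was below 0 on 8 arrays and above 0 on 8, from -0.93 through a median of -0.00 to 0.17, with a mean of -0.18 ± 0.11 (SD, n = 4 mice). The second was below 0 on all 13 arrays that had a value, from -1.04 through -0.43 to -0.11, with a mean of -0.52 ± 0.13 (SD, n = 4 mice). The mouse means of the first probe were -0.12, -0.12, -0.34 and -0.15, and those of the second -0.34, -0.65, -0.52 and -0.55. Hence the gene's mean of -0.35 ± 0.08 (SD, n = 4 mice) rests mostly on the second probe. That probe also read lower with knockout RNA in channel 1 (-0.74) than in channel 2 (-0.29).

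Mylk, myosin light chain kinase, which triggers contraction of smooth muscle, lies 30 places before Slc15a2. It was below 0 on 14 of 16 arrays, from -0.66 through a median of -0.28 to 0.26. The mouse means were -0.26, -0.20, -0.55 and -0.14, averaging to -0.29 ± 0.18 (SD, n = 4 mice). Mouse 3 gave the 4 lowest of its 16 values, and without mouse 3 the mean was -0.20. Of 8 smooth muscle markers 5 were measured. None passed limma's test (0 also at an unadjusted 0.05), and the median log2 ratio of the list was 0.06. The lowest of them, the myosin heavy chain Myh11, stood at -0.14 and was also lowest in mouse 3 (-0.34). The other markers did not share this: in mouse 3 Actg2 stood at 0.28, Des at 0.06, Smtn at 0.05 and Acta2 at -0.01. The list median in mouse 3 was 0.05. Whether smooth muscle content took part in the Mylk ratio was not tested. In a bulk kidney sample, fewer cells of a type and less RNA per cell cannot be told apart, here and for every gene below.

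Ncbp2, the small subunit of the nuclear cap-binding complex, lies 69 places before Slc15a2 and had a negative mean. Its first probe was below 0 on 13 of 14 arrays, from -0.72 through -0.22 to 0.03, with mouse means of -0.16, -0.13, -0.58 and -0.36. Its second probe was split, with 7 arrays below and 8 above 0, and mouse means of 0.10, 0.01, -0.15 and -0.25. The gene's mean was -0.19 ± 0.17 (SD, n = 4 mice). Both probes put mice 3 and 4 below mice 1 and 2, although they differed in level.

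Bdh1, Atp13a4 and Mb21d2, at the far end of the stretch, had ratios above 0. Bdh1, the mitochondrial dehydrogenase that interconverts the ketone bodies acetoacetate and hydroxybutyrate, lies 75 places before Slc15a2. Its second probe was above 0 on all 16 arrays, from 0.0050 through a median of 0.37 to 0.86, with mouse means of 0.56, 0.28, 0.56 and 0.29, or 1.34-fold higher on average. Its first probe was at 0.03 ± 0.06 (SD, n = 4 mice), with 9 arrays below and 7 above 0. The mean of both probes, 0.23, thus joins a probe near 0 with one that was high in every mouse.

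Atp13a4, a P5-type ATPase of the family that moves polyamines and other cations across membranes, lies 89 places before Slc15a2. It was above 0 on 13 of 16 arrays, from -0.17 through a median of 0.28 to 1.097. The means of mice 1 to 4 were 0.14, 0.02, 0.63 and 0.40, averaging to 0.30 ± 0.28 (SD, n = 4 mice). The arrays of mouse 2 lay on both sides of 0, while mice 3 and 4 were above it on all 8 of their arrays. Without mouse 3 the mean fell to 0.19.

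Mb21d2, a Mab-21 domain protein, is 3 places farther out. It was above 0 on 12 of 16 arrays, from -0.15 through 0.21 to 0.57, and its mouse means were 0.13, -0.01, 0.36 and 0.37, averaging to 0.21 ± 0.18 (SD, n = 4 mice). As for Atp13a4, mice 3 and 4 were above 0 on all of their arrays and those of mouse 2 lay on both sides of 0.

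Apod and Opa1 stood close to 0. Apod, the lipocalin apolipoprotein D, 76 places before Slc15a2, had 12 array values between -0.12 and 0.32 with a median of 0.05, and a mean of 0.07 ± 0.09 (SD, n = 4 mice). Opa1, the dynamin-related GTPase that fuses the inner mitochondrial membrane, 88 places before Slc15a2, had probe means of -0.02 and -0.03. Its values ran from -0.30 to 0.27 on the first probe and from -0.50 to 0.22 on the second. Opa1 lies 1 place from Atp13a4, so adjacent genes of the set had unlike ratios.

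**Figure D1:**
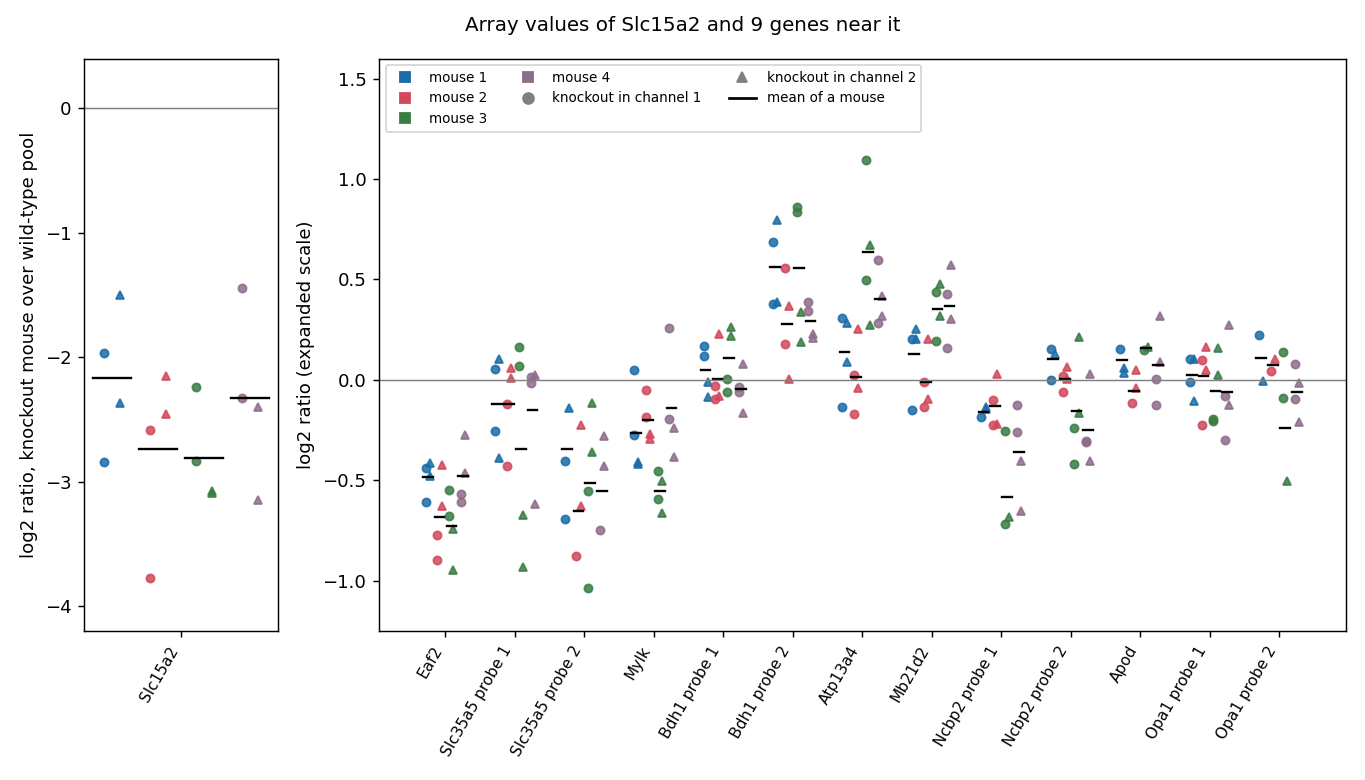
Log2 ratio of knockout mouse over wild-type pool (vertical axes) for each of the 14 probes on each array, coloured by mouse, with circles for knockout RNA in channel 1, triangles for channel 2 and bars for mouse means; the Slc15a2 panel has its own scale. Slc15a2 and Eaf2 lie below 0 on all 16 arrays and the second Bdh1 probe above 0 on all 16, whereas the probes of Opa1 straddle 0.

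Counted by probe, 9 of the 14 had values on all 16 arrays, and 3 of these 9 had the same sign on every array (Slc15a2, Eaf2 and the second Bdh1 probe). Over all genes' probes with 16 values, 45 of 3966 did so (1.13%). A ratio past 0.3 in either direction was reached by 3 of the 10 genes, Slc15a2, Eaf2 and Slc35a5, against 80 of 6191 genes (1.29%). In limma's test of the ratio against 0, 13 of 6191 genes (0.21%) passed an adjusted p of 0.05, and these same 3 genes were among the 13. Since the set was picked on this contrast, nothing is read from any of these counts.

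The other measured genes of the stretch were counted by position. Of the 200 coding genes within 100 places of Slc15a2, 55 were measured, and 46 of them are outside the set. Of the 46, 31 (67.4%) had a negative log2 ratio, with a median of -0.04, against 51.8% and a median of -0.00 over all genes. None of the 46 passed limma's test at an adjusted p of 0.05. That count is shaped by the picking, since the 2 genes of the 55 that passed, Eaf2 and Slc35a5, are in the set. Pcnp, 98 places after Slc15a2, passed when only probes with values on all 16 arrays were used, and when each gene was read from its single probe with the most values. Slc35a5 did not pass in either. At an unadjusted 0.05, 10 of the 46 (21.7%) passed, against 16.8% of all genes. The picking shapes that share too, since 17 of all 55 measured genes of the stretch (30.9%) passed. When the arrays entered singly with mouse as a random block, 7 of the 46 passed, in a fit that called 467 of all 6191 genes. That fit counts technical arrays singly, and the picking shapes its count too. The nearest of the 46 were the calcium receptor Casr, 3 places before Slc15a2, at -0.07, and the cytoskeletal adaptor Hcls1, 4 places after it, at 0.04. Each of the 4 mice stood lower for Eaf2 than any mouse did for Casr or Hcls1. Since Eaf2 was picked with its ratio in view, this is a description only.

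Farther along at positive places, the tyrosine catabolism enzyme Hgd (place 10) stood at 0.02, the complex I subunit Ndufb4 (place 11) at -0.27 and the secreted glycoprotein Fstl1 (place 12) at -0.07. At negative places, Ccdc58 (place -16) stood at -0.13, Fam162a (place -17) at -0.19, and Slc49a4 (place -24) at -0.06. Parp14, at place -22, had a mean of 0.29 with an SD of 0.57, with mouse 3 at 1.14 and the other mice between -0.02 and 0.05. The smallest p-values among genes outside the set belonged to Pcnp (place 98, -0.31, adjusted p = 0.102), Zbtb20 (place 35, -0.22, adjusted p = 0.145) and the copper chaperone Cox17 (place 19, -0.26, adjusted p = 0.148). After these and Ndufb4 came the ribosomal protein gene Rpl24 (place 96, -0.19), the surface receptor Cd47 (place 86, -0.15), Abhd10 (place 67, -0.23) and Fam162a. Of the 10 genes that passed an unadjusted 0.05, 9 were lower, and the 1 that was higher was Bbx (place 87, 0.11).

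By distance, 11 of 15 measured genes within 25 places were lower (median -0.07, with Eaf2), 10 of 12 at 26 to 50 places (median -0.04, with Mylk) and 15 of 28 at 51 to 100 places (median -0.01, with the other 7). Beyond 100 places on the same chromosome it was 72 of 143 (median -0.01). On other chromosomes 3068 of 5933 genes (51.7%) were lower. The median of the 55 genes within 100 places differed among the mice, with values of 0.00, -0.01, -0.10 and -0.05 for mice 1 to 4, while the median over all genes lay between -0.01 and 0.00 in each. At the edge of the stretch, Mb21d2 at place -92 is the farthest gene of the set, and the nearest measured genes past 100 places were P3h2 (place -102, 0.06) and Lpp (place -105, 0.03).

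**Figure D2:**
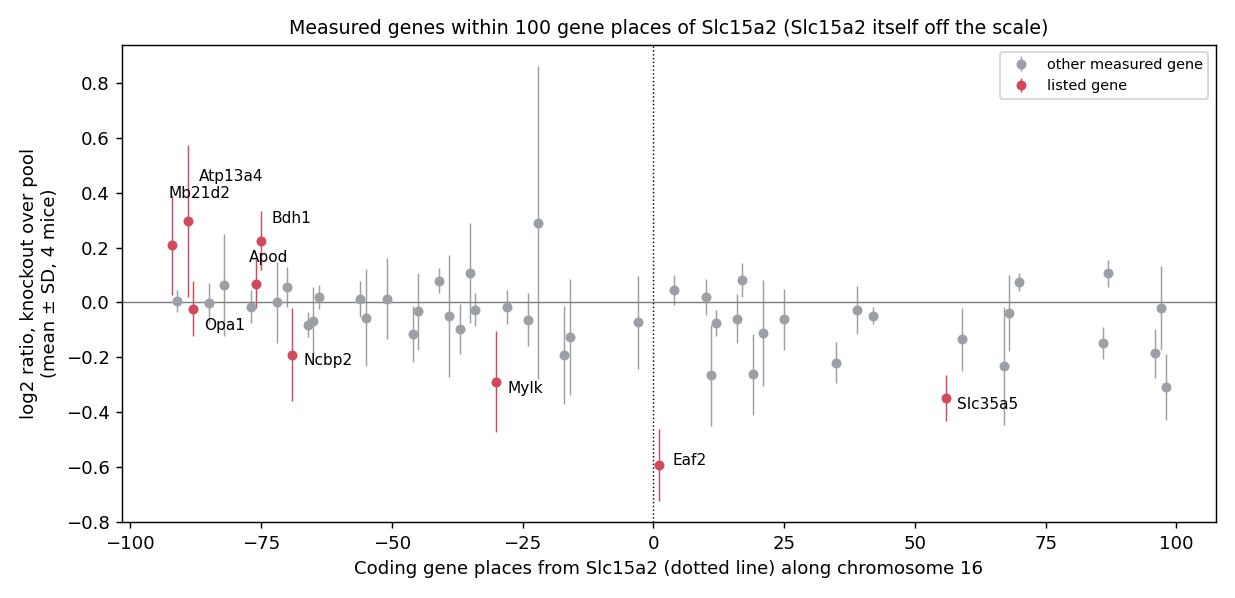
Mean log2 ratio of knockout over pool (vertical axis, bars are the SD over 4 mice) for the 55 measured genes within 100 coding gene places of Slc15a2 (horizontal axis, Slc15a2 at the dotted line and off the scale at -2.51), with the 9 genes of the set in red. Eaf2 is the lowest point, and Atp13a4, Bdh1 and Mb21d2 stand above 0 at the left among neighbours near 0, such as Opa1 at -0.02.

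The knockout mice were next compared with each other, a contrast in which the pool cancels and which did not choose the genes. A moderated F test over the 4 mice on array values, with a term for orientation, passed for 161 of 6191 genes (2.6%) and 252 of 10804 probes (2.33%) at an adjusted p of 0.05. It takes the arrays of a mouse as independent, so it measures differences between these 4 RNA samples. None of the 10 genes passed it. At an unadjusted 0.05, 3 of the 10 (Atp13a4, Mb21d2 and Mylk) did, against 13.7% of all genes. The smallest adjusted p-values were 0.101 for Atp13a4, 0.141 for Mb21d2 and 0.144 for Mylk. Ncbp2 had an adjusted p of 0.522 as a gene and 0.271 for its first probe, Eaf2 0.439 and Slc15a2 0.664. A difference between mice was thus not shown for any of the 10, although the SD over mice ranged from 0.08 for Slc35a5 to 0.28 for Atp13a4 and 0.31 for Slc15a2.

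Mouse 3 lay farthest from 0 among the mice for 9 of the 10 genes, on the negative side for the 6 with negative means and on the positive side for Bdh1, Atp13a4 and Apod. For Mb21d2 mouse 4 was marginally farther. Over all genes mouse 3 was the farthest from 0 in 39.8%, and the SD of its arrays over all probes was 0.30 to 0.37, against 0.17 to 0.33 in the other mice. The set was picked on these ratios, so nothing is read from the count of 9 against that share. Whether the width of the mouse 3 arrays took part in these values was not tested.

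**Figure D3:**
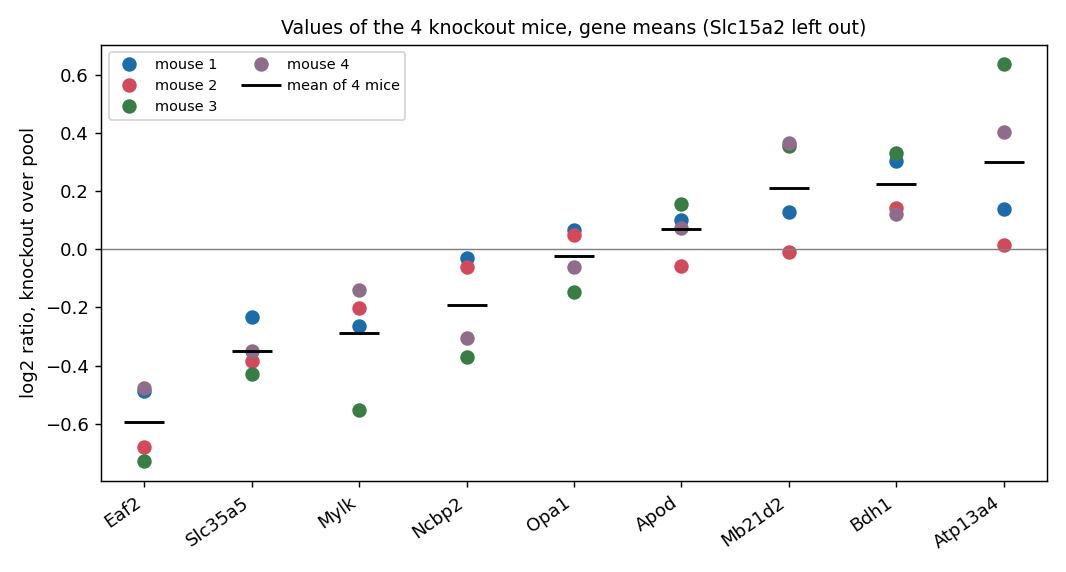
Gene mean log2 ratio of knockout over pool (vertical axis) of each of the 4 knockout mice, with a bar at their mean, for the 9 genes other than Slc15a2. Eaf2, Slc35a5 and Mylk are below 0 in all 4 mice and Bdh1 above 0 in all 4, while mice 3 and 4 stand above mice 1 and 2 for Atp13a4 and Mb21d2.

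Counting mice, 7 of the 10 genes had 1 sign in all 4. These are the values on which the set was picked, so the count is a description. The 3 genes of mixed sign were Mb21d2, Apod and Opa1, with mouse 2 at -0.01 for Mb21d2 and at -0.06 for Apod.

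The orientation of the labelling was the next independent measure. Over all genes the difference between orientations passed for 0 of 6191 (0%) in limma at an adjusted p of 0.05, and for 1208 (19.5%) at an unadjusted 0.05. None of the 10 genes passed, and only Mylk did before adjustment (channel 1 minus channel 2, 0.22, adjusted p = 0.209). Slc15a2 differed by 0.02 ± 0.83 (SD, n = 4 mice) between orientations and Eaf2 by -0.09 ± 0.24, with adjusted p-values of 0.97 and 0.619. The small mean for Slc15a2 joins large differences of opposite sign. In mouse 2 its channel 1 arrays (-2.59 and -3.77) lay below its channel 2 arrays (-2.15 and -2.45). In mouse 4 its channel 1 arrays (-1.45 and -2.33) lay above its channel 2 arrays (-2.40 and -3.15). The second Slc35a5 probe differed by -0.45 ± 0.08 (SD, n = 4 mice, adjusted p = 0.17 over all probes). Its first probe differed by 0.24, so that the probes' offsets ran in opposite directions.

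Probes of 1 gene were compared with each other in the same way. Among 1036 pairs, 1 passed an adjusted p of 0.05 in limma (0.0965%) and 137 an unadjusted 0.05. None of the 4 pairs of the set passed, and 3 of the 4 did before adjustment, against 13.2% of all pairs. The Bdh1 probes differed by -0.39 (first minus second, SE 0.05, adjusted p = 0.059), in mice 1 to 4 by -0.51, -0.27, -0.45 and -0.34. The Slc35a5 probes differed by 0.33 (SE 0.08, adjusted p = 0.0757), with the second lower in all 4 mice. The Ncbp2 probes differed by -0.24 (SE 0.07, adjusted p = 0.15). Opa1 differed by 0.01 (SE 0.06, adjusted p = 0.943). In size the Bdh1 pair ranked 6th and the Slc35a5 pair 10th of the 1036. The set was picked with its ratios in view, so nothing is read from the count of pairs or from these ranks. The files do not say which part of a transcript each probe covers.

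Atp13a4 and Mb21d2 followed each other across the arrays. Over the 16 arrays their log2 ratios correlated with a Pearson r of 0.72, where arrays of a mouse share its RNA and all share the pool. Among 2825 genes, Atp13a4 was the fifth most like Mb21d2 and Mb21d2 the 13th most like Atp13a4. The most alike genes of all were Wwp2 for Atp13a4 (r = 0.82) and Ube2l6 for Mb21d2 (r = 0.77). Ncbp2 ran the other way, with an r of -0.63 to Atp13a4 and of -0.45 to Mb21d2. Opa1, the coding gene next to Atp13a4, had an r of -0.16 to it.

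**Figure D4:**
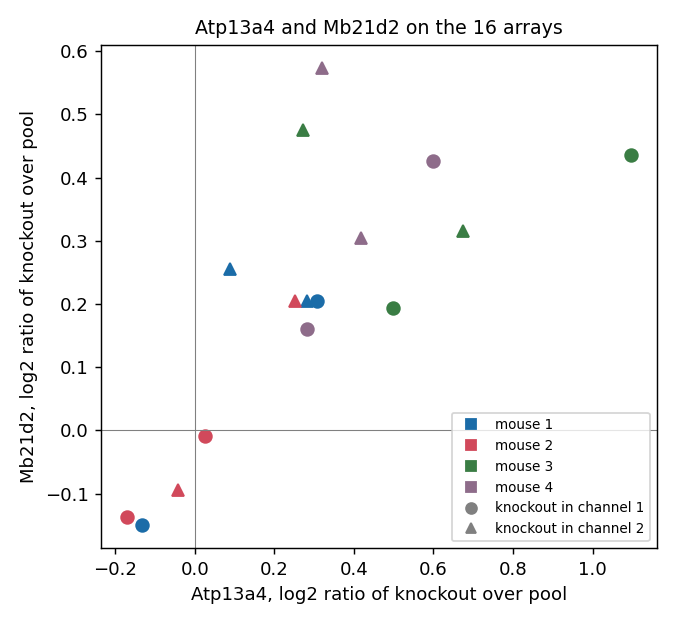
Log2 ratio of knockout over pool of Atp13a4 (horizontal axis) and Mb21d2 (vertical axis) on each of the 16 arrays, coloured by mouse, with circles for knockout RNA in channel 1 and triangles for channel 2. All 8 arrays of mice 3 and 4 lie in the upper right, above 0 for both genes, and 3 of the 4 arrays below 0 for Mb21d2 are from mouse 2.

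The genes whose pattern over the 16 arrays was most like that of Slc15a2 were on other chromosomes. They were the nuclear receptor coactivator Ncoa1 (r = 0.77), the arginine methyltransferase Prmt1 (0.75), Banp (0.71), Ankrd28 (0.70) and the proton-coupled amino acid transporter Slc36a1 (0.69). Their mean log2 ratios were 0.00, 0.05, -0.32, -0.07 and -0.04, none of them near the -2.51 of Slc15a2. In the set, Slc35a5 followed Eaf2 at an r of 0.36 to Slc15a2, Opa1 had 0.32, and Bdh1 had -0.09.

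Genes that work with members of the set were counted from lists. Of 10 genes of peptide and proton transport 3 were measured, and the scaffold Slc9a3r1 stood at 0.19 (adjusted p = 0.174), the scaffold Pdzk1 at -0.09 and Slc36a1 at -0.04. Of 11 elongation factors around Eaf2 7 were measured (median 0.06, 1 of them lower), and the super elongation complex scaffold Aff1 stood at -0.24 (adjusted p = 0.172) and the kinase Cdk9 at 0.14. Of 12 nucleotide sugar transporters 10 were measured (5 lower, median -0.03), with Slc35b4 at -0.13 and Slc35a3 at -0.14. None of these 20 genes passed in limma in either direction (4 at an unadjusted 0.05). Eaf2 and Slc35a5 were picked with their ratios in view, so nothing is read from their distance to these genes.

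For the remaining members, Oxct1, the 1 measured of 8 ketone body genes, stood at -0.08. Atp13a1, the 1 measured of 4 other P5-type ATPases, stood at 0.20 (adjusted p = 0.185), with 0.04, 0.11, 0.33 and 0.31 in mice 1 to 4. Of 9 genes of cap binding and export 6 were measured (4 lower, median -0.04), with the export factor Thoc2 at -0.24 and Ncbp1, the large partner of Ncbp2, at -0.12. Of 12 genes of mitochondrial fusion and inner membrane proteolysis 11 were measured (5 lower, median 0.01), with the protease subunit Spg7 at 0.16 and the protease Oma1 at -0.13. None of these 19 genes passed limma's test at an adjusted p of 0.05, and 5 did at an unadjusted 0.05.

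Markers of cells that could differ between kidney samples were counted beside these values. All 5 measured of 7 fibroblast markers were lower (median -0.05, with Col3a1 at -0.32 and Col1a2 at -0.18), all 3 measured of 6 adipose markers were lower (Lpl at -0.23, Fabp4 at -0.06), and all 3 measured of 7 leukocyte markers were higher (Ptprc at 0.15, Cd74 at 0.12). Over all genes 51.8% were lower. The adipose median was below 0 in all 4 mice (-0.11, -0.11, -0.03 and -0.17). The leukocyte median was above 0 in all 4 (0.07, 0.05, 0.21 and 0.11). The fibroblast median and some single markers did not keep their direction in every mouse. In mouse 2 the fibroblast median was 0.12, with only Col3a1 below 0 (-0.02), and Fabp4 stood at 0.34. Col1a1 and Fabp4 passed the F test between mice (adjusted p = 0.0417 and 0.0106). No leukocyte marker was above 0 in all 4 mice. Of 7 markers of the S3 segment, where PEPT2 works, 5 were measured with a median of 0.05, 3 higher and 2 lower. The higher ones, none past the threshold, were Napsa at 0.14 and Slc22a13 and Slc5a1 at 0.05 each. The anion transporter Slco1a6 fell by 0.39 (adjusted p = 0.0298), the 1 marker of any list past the threshold, and Cyp7b1 stood at -0.32 (adjusted p = 0.0983). The other lists were proximal tubule, 3 of 7 measured (Miox at 0.16), distal nephron, 2 of 6 (Umod at -0.00), and podocyte, 1 of 4 (Podxl at -0.19). The 2 distal nephron markers, Umod and Aqp2, had medians of -0.01, -0.06, 0.23 and 0.37 in mice 1 to 4, and Aqp2 was above 0 in all 4. Mice 3 and 4 also stood above mice 1 and 2 for Atp13a4 and Mb21d2. The same split was seen in Napsa (0.00, -0.04, 0.24 and 0.36) and in the smooth muscle marker Actg2 (-0.09, -0.16, 0.28 and 0.27), so it was not particular to these genes. The part of cell composition in the ratios of the 10 genes was not tested.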

How the data were processed

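Two-colour spotted cDNA arrays were read out with GenePix Pro 3.0, per the labels' protocols, and the authors subtracted background and set each array's median ratio to 1. The medians of the deposited log2 values ran from -0.093 to 0.0076 over the arrays, so not all of them were at 0. The deposited values are log2 ratios; 46.5% of 720 spacings between repeated values matched the log2 of a simple fraction and 0 matched natural or decimal logarithms. The sources used here do not name the numerator channel or the filter behind blank cells, which stayed blank. Of 20205 probes, 11723 named 1 gene, 806 several and 7676 none, from the platform annotation, and 11590 matched the gene table. Arrays were centred on their medians, signs were turned by the channel of the knockout RNA, and the 2 orientations of a mouse were averaged first within and then between them. Probes with a value in each mouse and orientation were kept (10804 probes, 6191 genes). Tests were two-sided in limma 3.58.1 (R 4.3.3) with Benjamini-Hochberg adjustment over all features and a threshold of 0.05. The scripts were tested on simulated data. Arrays of a mouse are technical replicates, and the number of mice and the single pool limit the precision of the ratios. The 10 genes, the partner lists and the marker lists were chosen with earlier results of these data known. The names given are the 10 genes, the 5 nearest measured genes on each side, the 8 others within 100 places with the smallest p, up to 2 genes by p in each list, and the 5 genes most like Slc15a2. Genes most like Atp13a4 and Mb21d2 and those just past 100 places were named after their values were seen. So were Bbx, Napsa, Slc22a13, Slc5a1, Acta2, Actg2, Des and Col1a1. Alternatives covered centring, quantile normalization, single orientations, array pairs, medians, probe filters, variance moderation, a random block and leaving out each mouse.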

Additional observations from a re-analysis of the deposited data

Results flagged for a closer look

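In the first Slc35a5 probe, mouse 3 stood apart from the other mice, at -0.34 against -0.12 to -0.15, a gap of 0.869 of the whole range, above Dixon's 95% critical value for 4 values. It was the only one of 18 distinct sets of 4 mouse values past that value, and chance passes about 1 in 20. The mouse 3 value joins -0.93 and -0.67 with knockout RNA in channel 2 with 0.07 and 0.17 with it in channel 1.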

How the results depend on the processing

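Leaving out one mouse gave 3 to 10 genes past the threshold against the pool (13 with all mice), 2 to 7 probes (10), 0 to 1 genes within 100 places besides Slc15a2 (2, Eaf2 and Slc35a5, of which Eaf2 alone passed without mouse 1, 3 or 4 and neither without mouse 2), 47 to 138 genes differing between mice (161) and 0 to 10 probe pairs (1). Gene, probe and regional counts were 1, 2 and 0 with knockout RNA in channel 2 only, 4, 6 and 1 on arrays 1 and 2, 2, 2 and 0 with a value in every mouse in any orientation, and 1, 1 and 0 with a variance trend and robust moderation. Arrays 3 and 4 gave 8 genes and 1 in the region, channel 1 only gave 1 in the region, and medians over arrays gave 18 probes and 1 in the region. Probes with values on all 16 arrays gave 40 genes and 23 probes, and the 2 regional genes became Eaf2 and Pcnp, as they also did with the single probe of most values. A random block for mouse, a fit that takes the technical arrays singly, gave 467 genes and 14 in the region. The cause of these shifts was not tested. Eaf2 and Slc35a5 were picked with this contrast in view, so whether they pass in any of these fits is a description only. Read as channel 2 over channel 1, the ratios become 2.51 for Slc15a2, 0.59 for Eaf2, 0.35 for Slc35a5, 0.29 for Mylk, 0.19 for Ncbp2, 0.023 for Opa1, -0.068 for Apod, -0.21 for Mb21d2, -0.23 for Bdh1 and -0.30 for Atp13a4. Under the other alternatives Slc15a2 ranged from -2.81 to -2.25, Eaf2 from -0.64 to -0.55, Slc35a5 from -0.40 to -0.13, Mylk from -0.40 to -0.18, Bdh1 from 0.03 to 0.26, Atp13a4 from 0.19 to 0.39, Mb21d2 from 0.14 to 0.28, Ncbp2 from -0.34 to -0.07, Apod from 0.03 (0.04 without mouse 3) to 0.11 (without mouse 2) and Opa1 from -0.05 to 0.02. No member changed sign except Opa1, at 0.02 without mouse 3. No member passed the between-mice or orientation test in any of 60 and 50 alternatives. Limits are the single wild-type pool, the 4 mice, the direction taken from the deleted gene, and the unknown signal over background. No paired analysis was possible because there is only 1 group, compared with 1 pool.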
